A study of Mus musculus with 6 samples.

Results

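The 8 genes described here encode the receptors through which macrophages bind IgG and the molecules that carry the signal onward. They were taken by symbol from the table of 55453 genes: the IgG receptors Fcgr1, Fcgr2b, Fcgr3 and Fcgr4, the neonatal Fc receptor Fcgrt, the signaling chains Fcer1g and Tyrobp, and the kinase Syk. RNA-Seq had been performed on 6 libraries of bone marrow-derived macrophages (BMDM) from C57BL/6 mice, 3 labelled PP2A KO and 3 labelled Wild Type. PP2Ac KO cells came from LysMcre PP2Ac fl/fl mice, and PP2Ac WT cells came from WT mice. In the former, cre under the Lysozyme 2 promoter removes exon 1 of Ppp2ca, the gene of the catalytic subunit PP2Ac, in myeloid cells. The paper names the University of Michigan as the source of the former and The Jackson Laboratory as that of the WT mice. Colony and the presence of cre therefore cannot be told apart from the loss of Ppp2ca. The labels give no treatment, age or number of mice, whereas the paper describes its RNA-Seq cells as stimulated with cGAMP, the ligand of the DNA-sensing adaptor STING. The labels name no difference in treatment between the genotypes, and no library labelled as unstimulated was analysed here.

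In the mouse, Fcgr1, Fcgr3 and Fcgr4 are activating receptors. Each needs the FcRγ chain, encoded by Fcer1g, whose activating motif (ITAM) is phosphorylated by Src family kinases when receptors are crosslinked by immune complexes and then recruits Syk. Fcgr2b is the inhibitory IgG receptor, whose inhibitory motif (ITIM) recruits the lipid phosphatase SHIP-1, and the balance between activating and inhibitory receptors sets the threshold at which macrophages phagocytose opsonized targets.

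Between genotypes the activating and inhibitory receptors moved in opposite directions, with the exception of Fcgr3. Fcgr4 and Fcgr1 were higher in PP2Ac KO than in PP2Ac WT BMDM, by 2.21-fold and 1.63-fold, together with Fcer1g, and Fcgr2b was lower, at 0.777 of its WT level. Fcgr3 differed by less than the spread between libraries. All 8 genes passed the filter on low counts, and the quasi-likelihood test of edgeR, adjusted by Benjamini-Hochberg over 13680 genes, called 3 of the 8 higher and 1 lower at FDR under 0.05. Of all genes tested, 18.1% were called higher and 19.0% lower, so calls were common in these data, and the count among 8 genes is read against that background. The median log2 fold change of the 8 genes was 0.16, against -0.02 for all genes tested.

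Library totals ran from 35257156 to 47390899 counts, and the count of 3 taken as the floor corresponded to 0.0604 to 0.0909 CPM (counts scaled to library size with TMM factors). TMM factors were 0.910 to 0.937 in PP2Ac KO and 1.05 to 1.10 in PP2Ac WT libraries, so the scaling itself separated the genotypes. With upper-quartile scaling 38.4% of all calls were higher in PP2Ac KO, compared with 48.7% with TMM. Ppp2ca, the targeted gene, had 47, 33 and 38 counts in PP2Ac KO against 10654, 8913 and 8279 in PP2Ac WT, so that no library went against its label. Macrophage markers were abundant in all libraries, apart from Lyz2, which had only 260 to 421 counts. Its reads may be divided with its paralog Lyz1, which was not tested. The macrophage markers summed to 8024 to 8062 CPM in PP2Ac KO, compared with 7048 to 7471 CPM in PP2Ac WT, with 1 of 8 (Mertk) called higher and none lower. All 4 fibroblast markers were called lower in PP2Ac KO, with a summed level of 22.7 to 33.4 CPM compared with 74.9 to 118 CPM, and the part of these cells in the results that follow was not tested. Markers of lymphocytes, neutrophils and mast cells had at most 72 counts in any library, with Ly6g, Cd8a and Tpsb2 at 0 in every library. Dendritic cell markers summed to 1.99 to 3.04 CPM in PP2Ac KO, compared with 1.31 to 2.05 CPM in PP2Ac WT, and 2 of the 3 tested (Siglech and Clec9a) were called higher. In such bulk libraries fewer cells of a type and less RNA per cell cannot be told apart.

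In the genome, 3 of the 4 IgG receptor genes lie close together on chromosome 1, and Fcer1g lies 164.6 kb beyond Fcgr3 (GRCm38, GENCODE M21). Fcgr2b (chr1:170958617-170976547, reverse strand), Fcgr4 (chr1:171018920-171029761, forward strand), Fcgr3 (chr1:171051174-171064935, reverse strand) and Fcer1g (chr1:171229572-171234365, reverse strand) together span 275.7 kb. Fcgr4, the gene with the largest increase among the 8, thus sits between the gene that fell and the gene that did not pass the test, 42.4 kb from Fcgr2b and 21.4 kb from Fcgr3. Fcgr1 is on chromosome 3 (chr3:96282909-96293969, reverse strand), Tyrobp (chr7:30413760-30417585, forward strand) and Fcgrt (chr7:45092990-45103851, reverse strand) are on chromosome 7, and Syk is on chromosome 13 (chr13:52583173-52648792, forward strand).

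Start-site windows of the 4 IgG receptor genes are shown because the genes differ in direction although 3 of them are neighbours. Each is the 250 bases before the first RefSeq start site listed for the gene (GRCm38.p6), written 5' to 3' on the strand of the gene. These start sites are not the ends of the GENCODE genes given above: the site of Fcgr3 lies 5532 bases and that of Fcgr2b 476 bases inside the gene, so both of these windows are within the gene by GENCODE, whereas the sites of Fcgr1 and Fcgr4 lie 0 and 6 bases from its start. RefSeq windows were matched for 7 of the 8 genes. Capitals mark matches on either strand to 3 sets of letters, which are TTCNNNGAA (GAS, an element of interferon-responsive genes), GAAANNGAA (the core of the interferon-stimulated response element, ISRE) and GAGGAA (the box of the myeloid factor PU.1).
Fcgr1 promoter, chr3:96293970-96294219, reverse strand: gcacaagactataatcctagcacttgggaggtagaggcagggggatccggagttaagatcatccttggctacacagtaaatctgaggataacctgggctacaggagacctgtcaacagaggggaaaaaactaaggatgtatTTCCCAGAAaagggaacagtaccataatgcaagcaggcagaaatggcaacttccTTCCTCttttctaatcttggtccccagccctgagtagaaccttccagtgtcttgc
Fcgr4 promoter, chr1:171018676-171018925, forward strand: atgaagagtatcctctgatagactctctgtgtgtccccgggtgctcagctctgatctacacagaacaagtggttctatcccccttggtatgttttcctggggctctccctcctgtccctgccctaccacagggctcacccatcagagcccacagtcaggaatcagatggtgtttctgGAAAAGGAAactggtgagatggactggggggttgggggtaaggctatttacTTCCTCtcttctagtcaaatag
Fcgr3 promoter, chr1:171059404-171059653, reverse strand: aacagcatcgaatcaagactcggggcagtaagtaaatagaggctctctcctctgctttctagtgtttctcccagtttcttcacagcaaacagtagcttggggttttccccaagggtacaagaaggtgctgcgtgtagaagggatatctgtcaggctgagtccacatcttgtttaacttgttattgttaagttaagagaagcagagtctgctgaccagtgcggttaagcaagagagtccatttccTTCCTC
Fcgr2b promoter, chr1:170976072-170976321, reverse strand: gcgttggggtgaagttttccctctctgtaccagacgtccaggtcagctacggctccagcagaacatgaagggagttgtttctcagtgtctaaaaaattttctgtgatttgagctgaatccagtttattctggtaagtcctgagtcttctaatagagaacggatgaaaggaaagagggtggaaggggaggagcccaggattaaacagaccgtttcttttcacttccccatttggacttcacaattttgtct

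Fcgr1 held a GAS match at -109 to -101 from its start site and a PU.1 box on the opposite strand at -55 to -50. Fcgr4 held an ISRE core at -73 to -65 and a PU.1 box on the opposite strand at -22 to -17. The window of Fcgr3 held only the PU.1 box, at -6 to -1, and that of Fcgr2b none of these letters, and the sequence before their GENCODE starts was not searched. No GAS or ISRE match was present in the windows of Fcer1g, Fcgrt or Syk. The search also covered the 50 bases after each start site, which are not printed and held no match. Of 32851 promoter windows searched over the same length, 8.30% held the GAS letters, 8.56% the ISRE core and 28.3% the PU.1 box, and a match of letters is not a binding site.

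Fcgr1 encodes the high-affinity IgG receptor, which binds monomeric IgG2a. Its levels were 964, 978 and 1004 CPM in PP2Ac KO, compared with 692, 571 and 549 CPM in PP2Ac WT. Every PP2Ac KO library was above every PP2Ac WT library, and the KO libraries lay closer together than the WT libraries. The means were 982.1 ± 20.2 and 604.1 ± 76.6 CPM (SD, n = 3), which gave a log2 fold change of 0.70 (SE 0.09, edgeR adjusted p = 4.90e-04).

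Fcgr4 encodes a receptor of intermediate affinity for IgG2a and IgG2b that is found on macrophages, monocytes and neutrophils. Its levels were 533, 507 and 454 CPM in PP2Ac KO, compared with 275, 232 and 170 CPM in PP2Ac WT. The groups did not overlap, and replicate 1 was the highest and replicate 3 the lowest library in both genotypes. The log2 fold change was 1.14 (SE 0.15, edgeR adjusted p = 5.15e-04), from means of 498.0 ± 40.7 and 225.7 ± 52.5 CPM (SD, n = 3). Fcgr4 was the only one of the 8 genes with both FDR under 0.01 and a log2 fold change above 1, a threshold that 3.36% of all genes passed in this direction. Without PP2Ac WT replicate 3, its lowest library, the log2 fold change was 0.98. Neutrophil markers, by comparison, had at most 37 counts in any library.

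Fcgr3 encodes the low-affinity activating receptor, which binds immune complexes of several IgG subclasses. Its levels were 472, 508 and 512 CPM in PP2Ac KO, compared with 521, 531 and 481 CPM in PP2Ac WT, and these ranges overlapped. The log2 fold change was -0.04 (SE 0.07, edgeR adjusted p = 0.706). The estimate is within 1 SE of zero, although a small difference in either direction could not be detected.

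Fcgr2b, the inhibitory receptor, had 108.8, 107.7 and 99.2 CPM in PP2Ac KO, compared with 143.5, 139.8 and 123.1 CPM in PP2Ac WT. All PP2Ac KO libraries were below all PP2Ac WT libraries. Means were 105.2 ± 5.27 and 135.5 ± 10.9 CPM (SD, n = 3), which gave a log2 fold change of -0.36 (SE 0.08, edgeR adjusted p = 0.00495). Fcgr2b is also the IgG receptor of B cells, and B cell markers had at most 30 counts in any library.

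Fcgr2b and Fcgr3 encode closely related extracellular domains. Of the 1733 windows of 50 bases in the exons of Fcgr3, 9.58% also occur in Fcgr2b, with a longest shared run of 129 bases, so a minority of their reads may have been divided between them or left uncounted. Exons of Fcgr2b overlap the antisense gene Gm38204 by 155 bases, but that gene had at most 2 counts. The strand setting of the counting is not given in the sources used here. Of the 5685 windows of Fcgr2b, 249 (4.38%) occur in some other gene, and 166 occur in Fcgr3. After Fcgr3, the gene that shared most was Gm4117, with 30 windows. Exons of Fcgr1, Fcgr4, Fcer1g, Tyrobp, Syk and Fcgrt shared no such window with another gene.

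**Figure D1:**
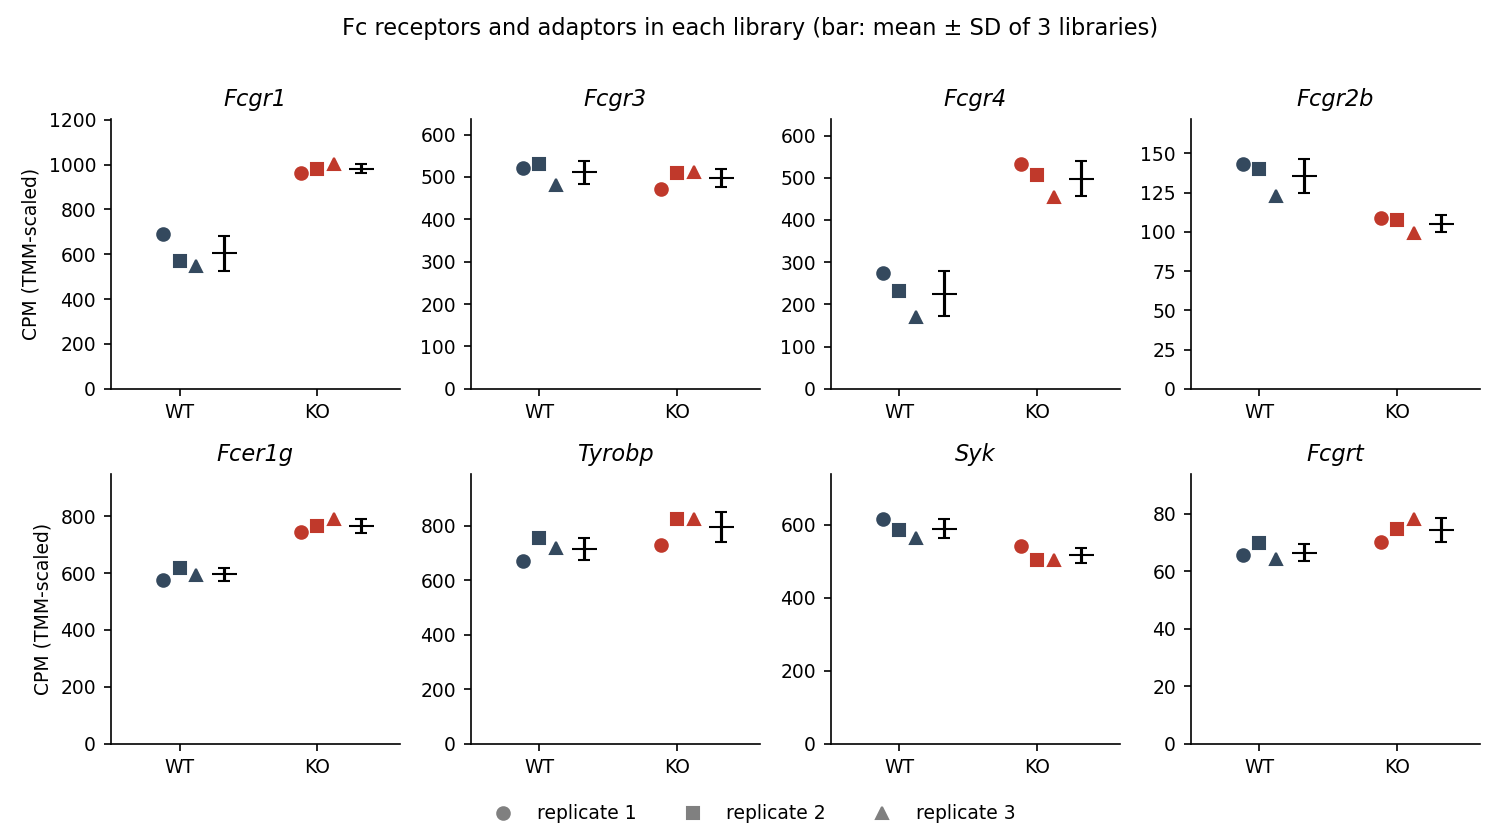
Level of each gene in CPM (TMM-scaled, axes from 0) in the 3 PP2Ac WT and 3 PP2Ac KO libraries, with symbols for the replicate number and black bars for the mean ± SD. Fcgr1, Fcgr4, Fcer1g and Fcgrt are higher in every KO library, Fcgr2b and Syk are lower in every KO library, and the libraries overlap for Fcgr3 and Tyrobp.

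Among the signaling chains, Fcer1g, the ITAM chain shared by the activating IgG receptors, had 744, 764 and 792 CPM in PP2Ac KO, compared with 575, 619 and 593 CPM in PP2Ac WT. The groups were separate, with a log2 fold change of 0.36 (SE 0.07, edgeR adjusted p = 0.00242) from means of 766.7 ± 24.0 and 595.9 ± 22.4 CPM (SD, n = 3). Mast cells and basophils also carry this chain, and the 7 markers of these cells summed to 1.06 to 1.98 CPM in PP2Ac KO against 1.26 to 1.72 CPM in PP2Ac WT, with Tpsb2 at 0 and Kit, at 27 to 72 counts, the highest of them. Fcer1a and Ms4a2 had at most 1 and 4 counts, and Cpa3 and Prss34 were highest in PP2Ac KO replicate 1, at 8 and 14 counts.

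Tyrobp encodes DAP12, the ITAM chain of TREM and related receptors. It had 731, 827 and 827 CPM in PP2Ac KO, compared with 671, 754 and 720 CPM in PP2Ac WT. The lowest KO library lay below the highest WT library, and the log2 fold change of 0.15 (SE 0.08) did not pass the test (edgeR adjusted p = 0.160). With the replicate number as a block it did (adjusted p = 0.00940).

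Syk, the kinase that docks on phosphorylated ITAMs, had 541, 504 and 503 CPM in PP2Ac KO, compared with 617, 586 and 565 CPM in PP2Ac WT. The groups did not overlap, yet the log2 fold change of -0.19 (SE 0.07) narrowly missed the threshold (edgeR adjusted p = 0.0537) and passed it with the replicate block (adjusted p = 0.00226). Its direction was thus opposite to that of Fcer1g.

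Fcgrt encodes FcRn, which binds IgG in acidic endosomes and returns it to the surface rather than signaling. Levels were 70.1, 74.8 and 78.3 CPM in PP2Ac KO, compared with 65.6, 69.7 and 64.3 CPM in PP2Ac WT. The lowest KO value was only just above the highest WT value, and the log2 fold change of 0.16 (SE 0.06) was not called (edgeR adjusted p = 0.0789) except with the replicate block (adjusted p = 0.0157).

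By ranges, 4 of the 8 genes were higher in every PP2Ac KO library and 2 were lower, whereas 24.0% and 26.8% of all genes were so separated. With the replicate block 5 genes were called higher and 2 lower, against 24.4% and 26.4% of all genes. No gene changed direction between the fits.

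**Figure D2:**
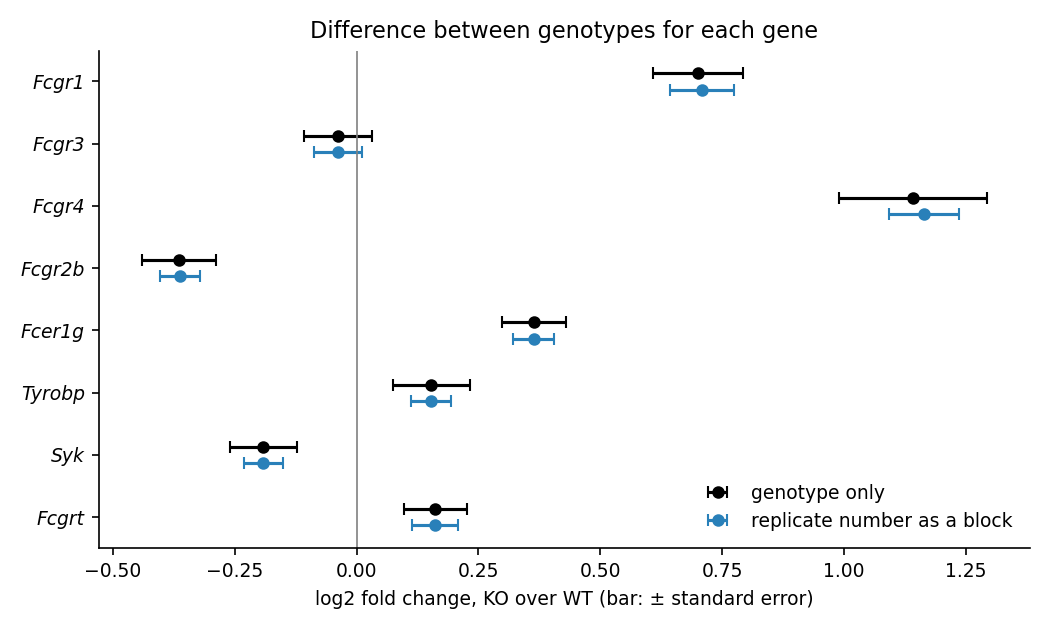
Log2 fold change of each gene in PP2Ac KO over PP2Ac WT BMDM, with bars of ± 1 standard error, fitted for genotype only (black) and with replicate number added as a block (blue). Fcgr4 lies at 1.14 and Fcgr2b at -0.36 in the fit for genotype only, and the block narrows the bars while leaving the estimates nearly in place.

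Levels of different genes can be compared only per length, here as RPKM (CPM divided by the kilobases of joined exons). Per kilobase of exon, Tyrobp was the highest of the 8 genes in both genotypes (1192 ± 82.5 RPKM in PP2Ac KO and 1072 ± 62.6 in PP2Ac WT, SD, n = 3), followed by Fcer1g (877 ± 27.4 and 682 ± 25.6 RPKM). The order of the activating receptors differed between genotypes. In PP2Ac WT, Fcgr3 led (294 ± 15.3 RPKM), above Fcgr1 (233 ± 29.6) and Fcgr4 (180 ± 41.8), and the libraries of Fcgr1 and Fcgr4 overlapped. In PP2Ac KO, Fcgr4 (397 ± 32.4 RPKM) and Fcgr1 (379 ± 7.80) were above Fcgr3 (287 ± 12.7), and their libraries overlapped with each other but not with those of Fcgr3. Syk (55.1 ± 2.28 and 62.9 ± 2.79 RPKM), Fcgrt (35.4 ± 1.96 and 31.7 ± 1.33) and Fcgr2b (18.2 ± 0.910 and 23.4 ± 1.87) followed in that order in both genotypes, with no overlap between neighbours. These orders depend on the lengths assumed. Joined exons are 1736, 2102 and 5790 bases for Fcgr3, Fcgrt and Fcgr2b, but their longest coding transcripts are 1347, 1770 and 3544 bases. Per length of those transcripts, Fcgrt and Fcgr2b overlap in PP2Ac WT. In PP2Ac KO, Fcgr3 then overlaps both Fcgr1 and Fcgr4.

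As a share of the 4 IgG receptors per kilobase, Fcgr4 made up 36.7 ± 2.51% in PP2Ac KO and 24.4 ± 3.07% in PP2Ac WT. Fcgr3 made up 26.5 ± 1.42% and 40.5 ± 3.10%. Fcgr1 held 35.1 ± 1.25% and 31.9 ± 1.68%, and Fcgr2b 1.68 ± 0.06% and 3.21 ± 0.13% (SD, n = 3 throughout). The share of Fcgr3 was lower in PP2Ac KO although its own level was not called, and shares of a whole move against each other. The size of each share also depends on the lengths assumed, which for Fcgr3 and Fcgr2b differ between joined exons and the longest coding transcript.

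**Figure D3:**
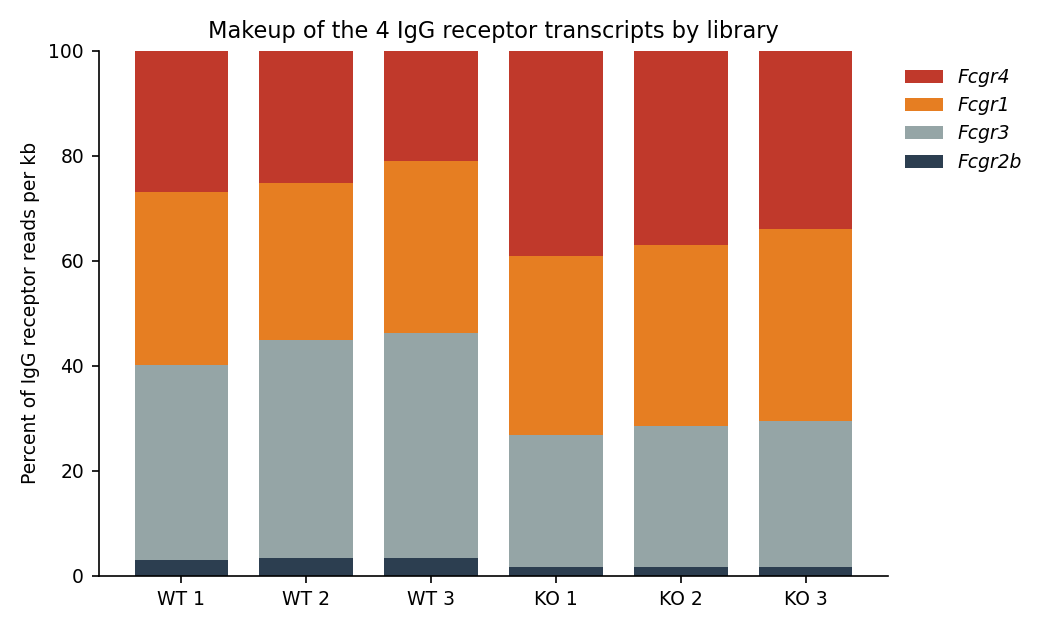
Makeup of the 4 IgG receptor transcripts in each library, as percent of their summed reads per kilobase of exon. Fcgr4 (red) takes 36.7% on average in KO and 24.4% in WT, and the thin Fcgr2b band at the base is narrower in KO.

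The comparison of activating with inhibitory receptors was made within each library, where library size and scaling cancel. The summed reads per kilobase of Fcgr1, Fcgr3 and Fcgr4 were 56.9, 57.8 and 61.0 times those of Fcgr2b in PP2Ac KO, and 31.7, 29.5 and 29.4 times in PP2Ac WT. The 6 libraries fell into separate ranges by genotype. On the log2 scale the ratio was 5.87 ± 0.05 in PP2Ac KO and 4.91 ± 0.06 in PP2Ac WT (SD, n = 3), a difference of 0.96 or 1.94-fold.

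Taken singly against Fcgr2b, the log2 ratio differed by 1.53 for Fcgr4, 1.07 for Fcgr1 and 0.32 for Fcgr3. The genotypes did not overlap for any of the 3. These ratios and that of the sum share Fcgr2b as denominator, so their separations are not independent. The libraries of Fcgr2b itself did not overlap between genotypes. Among all genes tested, 24.0% were higher and 26.8% lower in PP2Ac KO without overlap. The ratio of Fcgr3 rested on the lower Fcgr2b, because Fcgr3 itself was not called. With 3 libraries against 3, an exact two-sided permutation test cannot give p below 0.1, and no p is given for ratios built from genes chosen together. The size of the ratio depends on the transcript lengths assumed: with the longest coding transcript of each gene it was 37.4 to 40.4 in PP2Ac KO and 20.3 to 21.5 in PP2Ac WT.

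**Figure D4:**
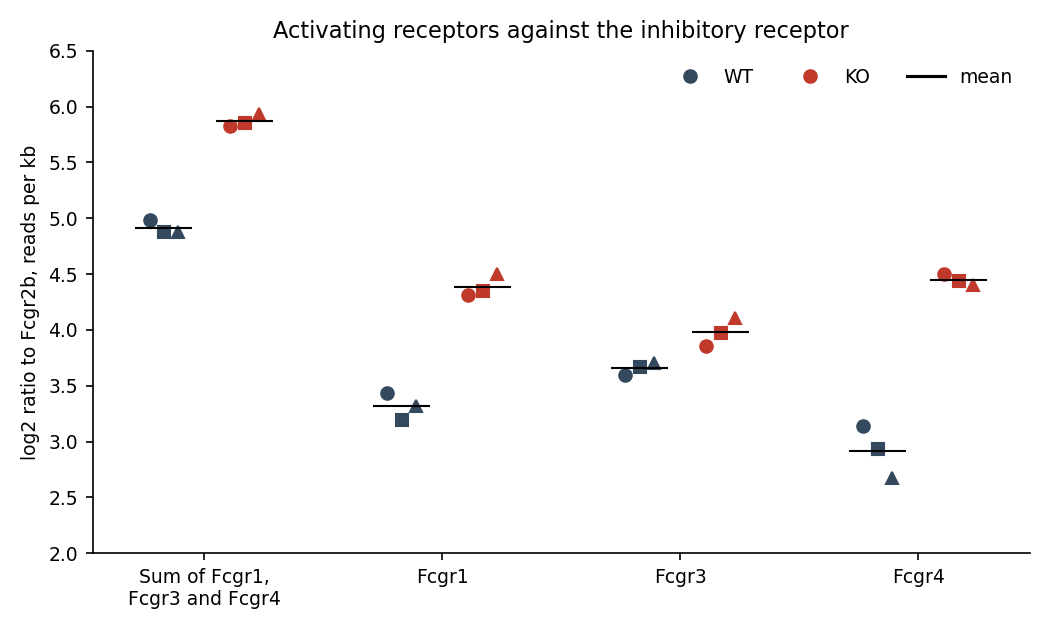
Log2 ratio of activating receptors to Fcgr2b in reads per kilobase of exon, for the sum of Fcgr1, Fcgr3 and Fcgr4 and for each alone, in PP2Ac WT (dark) and PP2Ac KO (red) libraries, with lines at the means and the axis starting at 2. KO libraries lie above WT libraries in all 4 comparisons, by 0.96 for the sum and by 0.32 for Fcgr3. All 4 share Fcgr2b as denominator.

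The supply of the shared chain was set against its receptors in the same way. Fcer1g reads per kilobase were 0.796, 0.814 and 0.868 of the summed activating receptors in PP2Ac KO and 0.837, 0.996 and 1.09 in PP2Ac WT. These ranges overlapped, although the KO library was below the WT library of the same replicate number in all 3 pairs, and the difference was not tested.

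Genes whose profile over the 6 libraries was nearest to each IgG receptor, by Euclidean distance between centred log2 CPM among 13679 genes, are given as a description. Nearest to Fcgr1 were Mitd1, Pnpt1 and Irgm2 (distances 0.08 to 0.10). Nearest to Fcgr4 were Rubcnl, Il18bp and Tank (0.14 to 0.15). Gab1, Epb41l1 and Plk4 (0.06 to 0.11) were nearest to Fcgr2b, and H3f3a, Vps36 and Papss1 (0.03 to 0.05) to Fcgr3.

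The other genes of Fc receptor signaling were taken from 7 lists, on which 116 of 137 genes were tested, 46 were called higher and 13 lower, and the median log2 fold change was 0.20. With the replicate block 64 were higher and 18 lower. These counts, and those of each list below, stand against 18.1% of all genes called higher and 19.0% lower, or 24.4% and 26.4% with the block. Src family kinases, which phosphorylate the ITAMs and ITIMs, had 4 of 6 tested members called higher and none lower (median 0.75). Lyn had 982, 926 and 859 CPM in PP2Ac KO, compared with 545, 409 and 363 CPM in PP2Ac WT. All KO libraries were above all WT libraries (log2 fold change 1.07, SE 0.14, edgeR adjusted p = 4.36e-04). Src rose by a log2 fold change of 0.60, and Lck, at 0.90, had at most 60 counts. Fgr and Fyn were not called (edgeR adjusted p = 0.112 and 0.246), but both were with the replicate block (adjusted p = 0.0410 and 0.00183). Fgr and Fyn were picked after their values were seen.

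Among other Fc receptors, 3 of 7 tested were called higher and none lower (median 0.65). Fcrls, a receptor-like scavenger molecule of macrophages, was at 235 ± 12.9 CPM in PP2Ac KO, compared with 140 ± 13.8 CPM in PP2Ac WT (log2 fold change 0.74). Trim21, the cytosolic Fc receptor that directs antibody-bound virus to the proteasome, was at 209 ± 7.74 and 133 ± 21.3 CPM (log2 fold change 0.65, edgeR adjusted p = 0.00135). Fcrl1, at 0.80, was low, at 3.44 and 1.99 CPM.

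Of 9 tested receptors that couple to FcRγ, 3 were called higher and none lower, and the median of 0.04 was close to that of all genes. Clec4e (Mincle, a receptor for mycobacterial glycolipid) was at 103 ± 10.9 and 43.7 ± 5.58 CPM (log2 fold change 1.23, edgeR adjusted p = 8.21e-05). Cd300lf and Clec4n (Dectin-2) rose by 0.61 and 0.56. Among 15 tested receptors that couple to DAP12, 8 were called higher and 1 lower (median 0.68). Klrk1 (NKG2D) had the largest log2 fold change of this list, 1.86, from 3.05 ± 1.51 to 11.2 ± 2.72 CPM, while Trem2, a lipid receptor of macrophages, was at 692 ± 46.8 and 676 ± 46.1 CPM (edgeR adjusted p = 0.767). Pilrb1, Cd300e and Pilrb2 were higher by 1.35, 1.15 and 1.08, all at means under 5 CPM in both genotypes. The gene called lower was Cd300lb, at 92.8 ± 11.1 and 168 ± 18.2 CPM (log2 fold change -0.86). Trem2 and Cd300lb were picked after their values were seen.

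Downstream of Syk, 11 of 27 genes for activating signaling were called higher and 4 lower (median 0.17). The adaptor Lcp2 (SLP-76) was at 211 ± 13.7 and 121 ± 7.99 CPM (log2 fold change 0.80, edgeR adjusted p = 1.22e-04), and the exchange factor Sos1 rose by 0.63. Vav2 and Plcg1 fell, with log2 fold changes of -0.73 and -0.55. Plcg2, the other phospholipase of the list, rose by 0.48, from 123 ± 10.3 to 172 ± 7.41 CPM, and was picked after its values were seen, as were Lat2 (-0.31) and Pik3r2 (-0.45), the remaining genes called lower.

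Of 28 genes of the phagocytic cup, 8 were called higher and 6 lower (median 0.12), against 18.1% and 19.0% of all genes. The replicate block called 15 higher and 7 lower, against 24.4% and 26.4% of all genes. Marcksl1, an actin-binding protein kinase C substrate, was at 778 ± 102 CPM in PP2Ac KO, compared with 271 ± 36.3 CPM in PP2Ac WT (log2 fold change 1.52). The Cdc42 regulator Dock8 rose by 0.84 and the Arp2/3 subunit Actr3 by 0.50. The long-tailed myosin Myo1e fell, at -0.56.

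On the list for inhibitory signaling, 9 of 24 tested genes were called higher and 2 lower (median 0.12), and 12 and 4 with the replicate block. Pirb, an inhibitory receptor for MHC class I, was at 376 ± 18.4 and 276 ± 6.28 CPM (log2 fold change 0.45, edgeR adjusted p = 8.30e-04). Pilra, Sla and Ptprc (CD45) were higher by 1.08, 0.59 and 0.52, of which Pilra was low, at 3.26 and 1.53 CPM. Placement on this list was a choice and does not establish that a gene, Ptprc included, acts only to inhibit. Inpp5d, which encodes the SHIP-1 that Fcgr2b recruits, was at 334 ± 9.26 and 348 ± 15.4 CPM (log2 fold change -0.06, edgeR adjusted p = 0.503), and the tyrosine phosphatase gene Ptpn6 (SHP-1) rose by 0.35. Dok2 and Cblb were the genes called lower, at -0.44 and -0.39. These last 4 genes were picked after their values were seen.

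**Figure D5:**
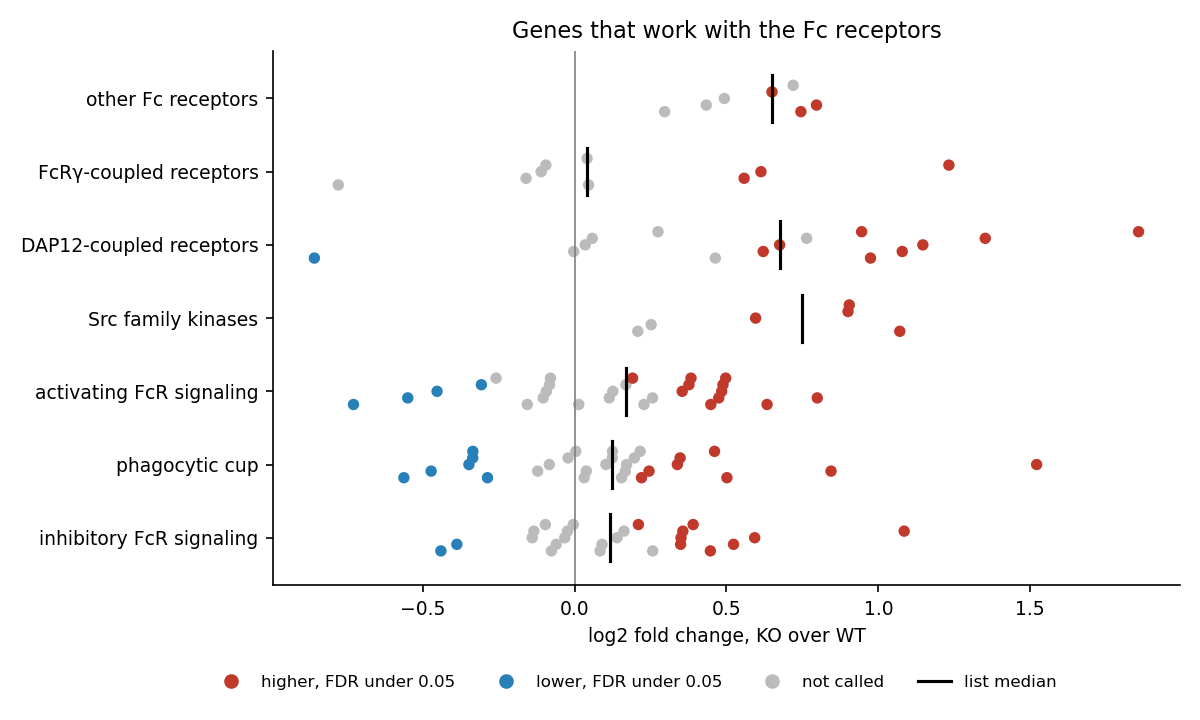
Log2 fold change (PP2Ac KO over PP2Ac WT) of each tested gene on the 7 lists, coloured where called at FDR under 0.05 (red higher, blue lower, grey not called), with a black line at each list's median. The medians run from 0.04 for FcRγ-coupled receptors to 0.75 for Src family kinases. None of the 6 Src family kinases and 7 other Fc receptors tested was called lower, against 19.0% of all genes.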

How the data were processed

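The authors deposited 1 table of read counts per gene for 6 poly(A) RNA-Seq libraries of BMDM, as whole numbers without normalization. The submitters' processing notes name fastp 0.20.0, STAR 2.7.1a, HTSeq 0.11.2 and kallisto 0.46.1 and the mm10 build, without saying which step made the table. Tests on the counts used edgeR 4.0.16 under R 4.3.3, namely filterByExpr (minimum count 10, minimum total 15), TMM, glmQLFit and glmQLFTest for genotype, with Benjamini-Hochberg adjustment over 13680 genes and calls at FDR under 0.05. SE is the log2 fold change divided by the square root of F. RPKM were computed from TMM-scaled CPM and the joined exon length of each gene.

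Both genotypes carry replicate numbers 1 to 3 in the labels. Deviations of same-numbered libraries from their group means correlated across genes at 0.289, 0.148 and 0.337, and the number was therefore also fitted as a block. The labels do not say whether the libraries are separate cultures or mice. The paper speaks in general of biological triplicates for its cell-based experiments, without saying whether those of the RNA-Seq came from separate mice. The p-values therefore measure only the spread between these libraries. Same-group libraries differed by more than counting noise.

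The genes, the lists and the tests were chosen with earlier results of these data known. On each list, the genes named were up to 4 with the largest absolute log2 fold change among those called, with separate ranges and a mean of at least 1 CPM, unless said otherwise. Of the genes that met this rule, 1 is not reported here. The method was tested on simulated counts with few changed genes, in both directions, and with no replicate effect. That simulation cannot judge the scaling or the block in these data, where TMM factors separated the genotypes. Alternatives were RLE and upper-quartile scaling, other filters, DESeq2 1.42.0, limma-voom (limma 3.58.1), the block and each library left out.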

Additional observations from a re-analysis of the deposited data

How the results depend on the processing

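Fcgr1, Fcgr4, Fcgr2b and Fcer1g kept their direction and an adjusted p under 0.05 under every alternative run, with log2 fold changes of 0.64 to 0.81, 0.98 to 1.31, -0.43 to -0.32 and 0.30 to 0.39, and no result changed sign. Fcgr3 was called in none of them (lowest adjusted p 0.292). Genes called higher numbered 5 with the replicate block, and genes called lower 2 with the replicate block and 2 with upper-quartile scaling. With each library left out in turn, the number lower was 1 to 2, being 2 without PP2Ac KO replicate 1, where Syk had an adjusted p of 0.0467. Syk had 0.0115 with upper-quartile scaling and Fcgrt 0.0423 with RLE scaling. The replicate block called Fcgrt, Tyrobp and Syk (adjusted p = 0.0157, 0.00940 and 0.00226, edgeR) and changed no other call among the 8 genes. The difference in log2 ratio of activating receptors to Fcgr2b was 1.29 without Fcgr3, 0.93 from raw counts, 0.96 with the replicate block and 0.93 to 0.99 with each library left out. It was 0.90 with the longest coding transcript, an alternative chosen after seeing the data. In the lists, the phagocytic cup had 3 genes lower without PP2Ac KO replicate 1, and 1 Src family kinase that the filter on low counts otherwise leaves out (Yes1 where a library was left out) was lower under 5 alternatives. The cause of these shifts was not tested. With 3 libraries per genotype, differences of the size seen for Syk, Fcgrt and Tyrobp lie at the limit of what the test called.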
